A study of Homo sapiens with 6 samples.

Results

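Ribosome biogenesis was followed through 41 genes for nucleolar proteins that make, modify and process ribosomal RNA (rRNA). They were chosen by name for what they do, with earlier results of these data known. All 41 were found among the 58174 genes of the expression table, each in 1 row. RNA came from PC9, an established human lung adenocarcinoma cell line. Of 6 libraries, 3 were from PC9 cells given an antagomir against tsRNA-5001a, called knockdown here, and 3 from PC9 cells given a negative control antagomir, called control. tsRNAs are cut from transfer RNAs, and antagomirs are chemically modified antisense oligonucleotides that block small RNAs. The labels give neither dose nor time after treatment. Nothing in them tells whether libraries were made from different cultures, and the spread behind each p-value may therefore be technical. All libraries share 1 cell line.

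In the nucleolus, RNA polymerase I copies the rRNA genes into a long precursor. Small nucleolar ribonucleoproteins (snoRNPs) guide methylation and pseudouridylation of this precursor, and large assemblies of processing factors cut it and fold it into the precursors of the small and large ribosomal subunits. Genes for these factors are widely expressed, are among the known targets of the transcription factor MYC, and are usually high in growing tumour cells. The tsRNA is not among the genes counted, so its knockdown could not be checked here.

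Libraries held between 32342017 and 40066223 gene counts. Levels are given as CPM, which are counts scaled to library size and by the TMM factors of edgeR, or as the deposited TPM, which also take gene length into account. The label of the line was checked against markers of epithelial, blood, fibroblast and endothelial cells. Epithelial genes were high in all libraries, with KRT8 between 3732 and 6209 TPM in knockdown and between 4830 and 5105 TPM in control libraries. PTPRC, CD3E, COL1A2 and LUM, which define blood cells and fibroblasts, were at most 0.54 TPM in any library, and LUM was at 0 in all. Some markers of other cell types were detected, with means of 68.9 TPM in knockdown and 55.9 TPM in control libraries for CD68, 16.4 and 11.2 TPM for COL1A1, and 14.3 and 11.96 TPM for CDH5. DCN, PECAM1 and VWF were low, with means of 1.08, 6.28 and 0.0708 TPM in knockdown and 0.393, 3.88 and 0.0321 TPM in control libraries. In CPM the knockdown libraries lay wholly above the control libraries for DCN, PECAM1 and VWF, with log2 fold changes of 0.81, 0.32 and 0.90 (edgeR adjusted p 0.264, 0.354 and 0.432), and overlapped them for CD68, COL1A1 and CDH5. Whether other cell types have a part in the results was not tested.

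No gene of the 41 passed the test. With edgeR's quasi-likelihood test at a Benjamini-Hochberg adjusted p of 0.05 over 19040 tested genes, 0 rose and 0 fell, beside 1.17% of all tested genes called (1.1% higher and 0.0735% lower). DESeq2 also called 0 of them, beside 2.54% of all tested genes higher and 1.14% lower, with a lowest adjusted p of 0.0873 for IMP4. At an unadjusted p under 0.05 there were 6 of the 41 (16.5% of all tested genes). All 6 were lower in knockdown, where 6.71% of all tested genes were lower and 9.77% higher at that level. The 6 were FBL, IMP4, NOP16, BOP1, UTP4 and NHP2, and the lowest edgeR adjusted p among the 41 was 0.194, for FBL. Below 0 lay the log2 fold changes of 30 of the 41 genes, beside 44.1% of all tested genes. The median of the 41 was -0.20, beside a median of 0.05 over all tested genes. CPM of the knockdown libraries lay wholly below those of the control libraries for 16 of the 41, where 10.8% of all tested genes did so. They lay wholly above for 0, beside 13.4% of all tested genes (24.3% in either direction). All 41 passed the filter on low counts, so none was lost to it. In bulk RNA, a lower level in every cell and a smaller share of cells with a given level cannot be told apart.

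**Figure D1:**
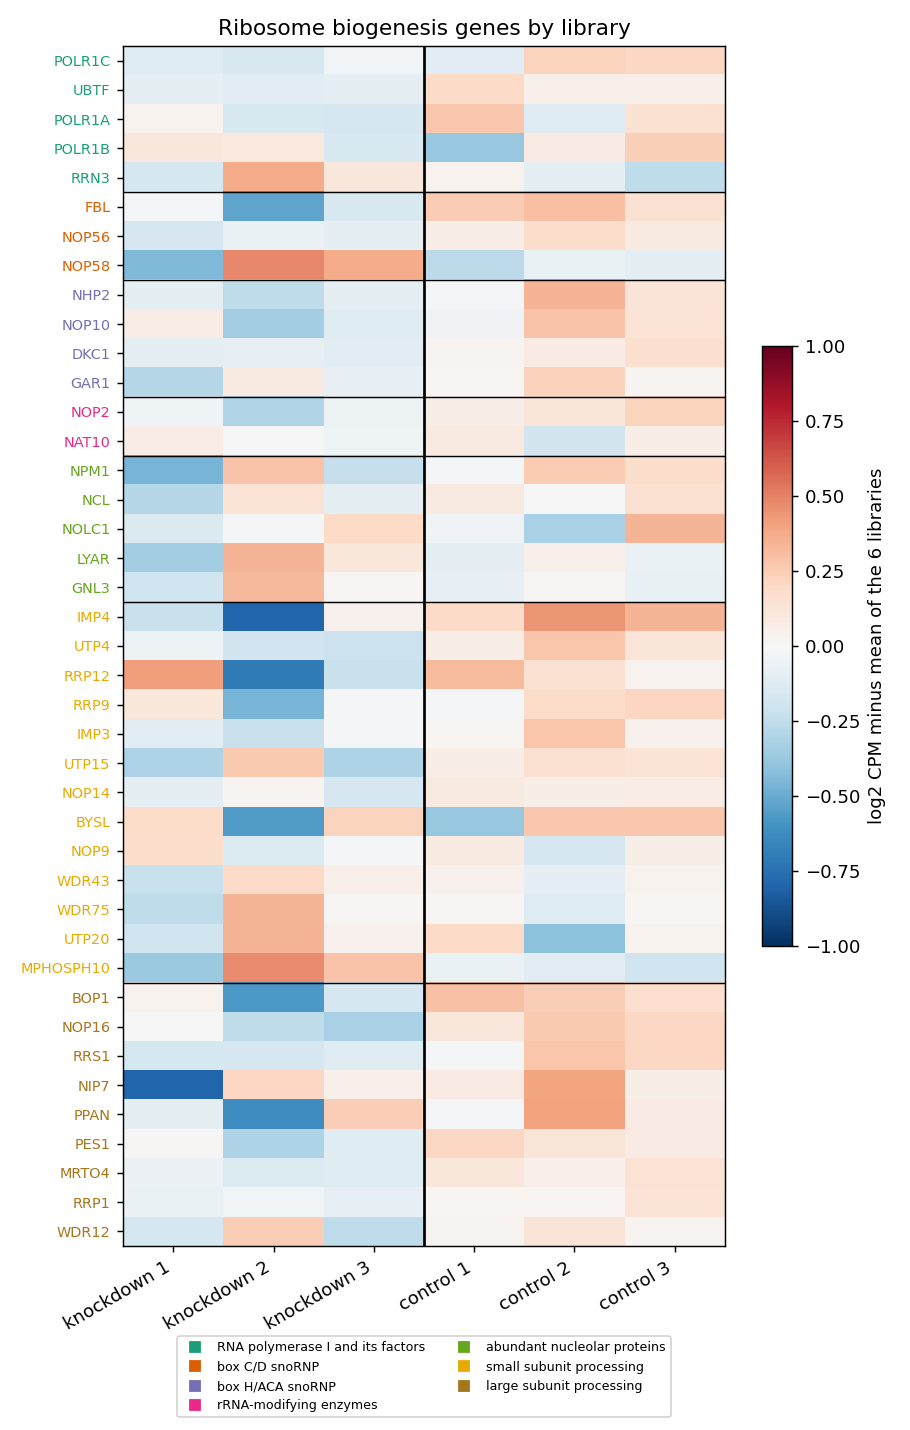
Heat map of log2 CPM of the 41 genes (rows, grouped by role and ordered by fold change) in 3 knockdown and 3 control libraries (columns), each as the difference from the gene's mean over the 6 libraries (colour scale). Controls 2 and 3 are above the mean for 31 and 36 genes and knockdown library 1 for 10, while knockdown library 2 holds the lowest value of 15 genes and the highest of 11.

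The genes differed widely in level per length. NPM1, which encodes the nucleolar chaperone nucleophosmin, was at 968, 2013 and 1155 TPM in the knockdown libraries and at 1531, 1597 and 1706 TPM in the control libraries. It had the highest mean of the 41, followed by FBL and NHP2. At the other end stood RRP12, a factor of late small subunit maturation, with 4.80 ± 0.51 TPM in knockdown and 4.56 ± 0.56 TPM in control libraries (SD, n = 3 each). UTP20, a large scaffold protein of small subunit processing, was next lowest, and then WDR12. UTP20 had 5.47, 8.29 and 6.24 TPM in the knockdown libraries and 6.74, 3.78 and 5.48 TPM in the control libraries, which overlap.

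**Figure D2:**
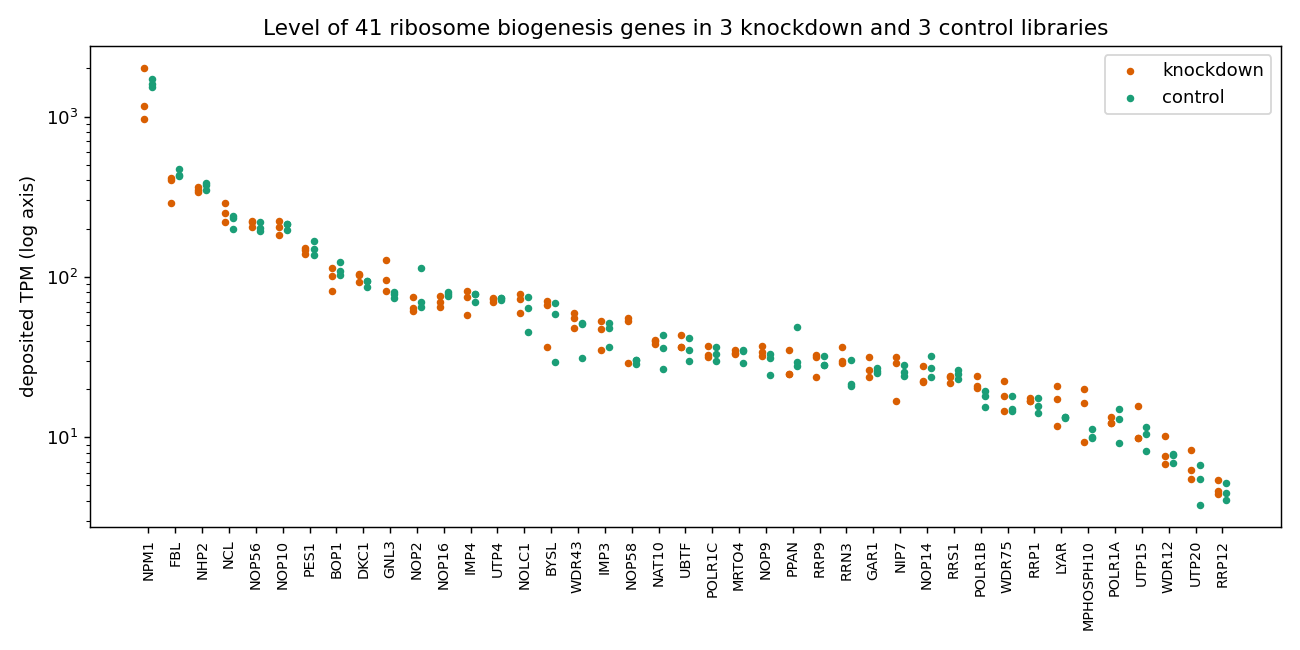
Deposited TPM of each of the 41 genes (log axis) in 3 knockdown (orange, left) and 3 control libraries (green, right), ordered by mean level. The groups are apart for 2 genes that are higher in knockdown (POLR1B and GNL3) and 2 that are lower (FBL and NOP16), and overlap for the others. The share of all tested genes apart in TPM was not taken, so these counts have no background beside them.

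The unit set the side of 0 for many genes. Mean CPM was lower in knockdown for 30 genes and mean TPM for 16. For 14 genes CPM was lower and TPM higher in knockdown, and for 0 genes the other way round. DKC1 had 82.0 ± 0.62 CPM in knockdown against 93.2 ± 4.39 CPM in control libraries, but 99.4 TPM in knockdown against 91.5 TPM in control libraries on average. CPM of UBTF, NOP56, MRTO4 and RRP1 were likewise apart and lower in knockdown. Their mean TPM were 38.8, 216, 33.8 and 17.0 in knockdown, above 35.4, 206, 32.9 and 15.7 in control libraries. On the log2 TPM scale with a pseudocount of 1 the median over all tested genes was 0.21, and that of the 41 was 0.06. Relative to all tested genes, the median of the 41 was thus lower by both units, at -0.25 in the fit to counts and -0.14 for TPM. All tested genes include many of low level. In the fit to counts, other protein-coding genes below 4 log2 CPM had a median of 0.16, and 2 of the 41 lay there. For TPM no comparison with genes of like level was made.

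RNA polymerase I and its factors make the rRNA precursor. POLR1A and POLR1B encode its largest subunits, POLR1C a subunit shared with RNA polymerase III, UBTF a factor that binds the rRNA gene promoter, and RRN3 the factor that brings the polymerase to it. UBTF had 68.6, 67.7 and 69.0 CPM in the knockdown libraries and 84.1, 76.1 and 76.2 CPM in the control libraries. Its libraries did not overlap, and it was the only one of the 5 for which this held, with a log2 fold change of -0.20 (SE 0.11, edgeR adjusted p 0.408). POLR1C stood lowest of the 5 at -0.21 and RRN3 highest at 0.22. RRN3 had 48.1, 70.2 and 58.9 CPM in the knockdown libraries and 55.7, 50.9 and 45.6 CPM in the control libraries, which overlap. Without knockdown library 2 the log2 fold change of RRN3 was 0.06. Pseudogenes named after RRN3 held 17.5% as many counts as RRN3 itself, so its value is uncertain.

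Box C/D snoRNPs carry out guided methylation, with fibrillarin (FBL) as the methyltransferase and NOP56 and NOP58 as paired core proteins. FBL had 182, 128 and 166 CPM in the knockdown libraries and 220, 228 and 206 CPM in the control libraries. Every knockdown library was below every control library, and knockdown library 2 was the lowest. The log2 fold change of FBL was -0.46 with a 95% interval of -0.79 to -0.12 and an edgeR adjusted p of 0.194. NOP56 had 141, 151 and 148 CPM in the knockdown libraries and 166, 178 and 169 CPM in the control libraries, again with no overlap (-0.22 on the log2 scale, with 0.334 as edgeR's adjusted p). NOP58 had 27.2, 51.5 and 47.8 CPM in the knockdown libraries and 30.8, 35.2 and 34.6 CPM in the control libraries. Knockdown library 1 lay below all controls and the other knockdown libraries above them, so the log2 fold change of 0.33 came with a 95% interval of -0.19 to 0.85. It was 0.52 without knockdown library 1 and 0.15 without knockdown library 2. The TPM of NOP58 was 0.142, 0.246 and 0.242 of that of NOP56 in the knockdown libraries, against 0.138, 0.147 and 0.150 in the control libraries. The difference between these genes was not tested.

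Box H/ACA snoRNPs guide pseudouridylation, with the synthase DKC1 (dyskerin) and the small proteins NHP2, NOP10 and GAR1. All 4 had log2 fold changes below 0, between -0.31 and -0.18, beside 44.1% of all tested genes below 0. In mean TPM, DKC1 and GAR1 were higher in knockdown. DKC1 and NHP2 did not overlap between groups, where 10.8% of all tested genes were apart and lower. NHP2 had 166, 149 and 165 CPM in the knockdown libraries and 175, 225 and 194 CPM in the control libraries. Its log2 fold change of -0.31 had a 95% interval of -0.60 to -0.01 and an edgeR adjusted p of 0.288. NHP2 shares 27.4% of its exonic bases with RMND5B on the opposite strand, and whether counting used strand is not given in the sources used here. GAR1 had the smallest difference of the 4, at 16.5 ± 2.17 CPM in knockdown and 18.7 ± 1.57 CPM in control libraries (SD, n = 3 each).

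Of the enzymes that modify rRNA outside these particles, NOP2 is a cytosine methyltransferase of the large subunit rRNA and NAT10 a cytidine acetyltransferase. NOP2 had 84.1, 70.2 and 83.3 CPM in the knockdown libraries and 89.8, 93.8 and 101 CPM in the control libraries. These did not overlap (log2 fold change -0.26, SE 0.12, edgeR adjusted p 0.346). NAT10 had 75.9, 71.9 and 70.0 CPM in the knockdown libraries and 76.6, 63.5 and 75.4 CPM in the control libraries, and its log2 fold change was 0.02 with a 95% interval of -0.27 to 0.30.

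Among the abundant nucleolar proteins are nucleophosmin, nucleolin (NCL), the snoRNP chaperone NOLC1, nucleostemin (GNL3), a GTPase-like protein of growing cells, and LYAR, a zinc finger protein of the nucleolus. For none of the 5 were the groups apart in CPM, and none had an unadjusted p under 0.05. NPM1 had 698, 1174 and 818 CPM in the knockdown libraries and 946, 1144 and 1086 CPM in the control libraries. Knockdown library 2 was above all controls and the other knockdown libraries below them. Without that library the log2 fold change of NPM1 was -0.49 (edgeR adjusted p 0.145), against -0.24 with it (edgeR adjusted p 0.556). NPM1 has 44 named pseudogenes in the table, which held 1.86% as many counts as NPM1. GNL3 stood highest of the 5, with a log2 fold change of 0.11 and a 95% interval of -0.23 to 0.45, but lay at -0.05 without knockdown library 2.

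Small subunit processing is represented by 13 genes, of which 8 lay below 0. IMP3, IMP4 and MPHOSPH10 encode proteins that act together with the snoRNA U3 in the assembly that cuts the precursor. IMP3 had 33.6, 31.1 and 36.0 CPM in the knockdown libraries and 36.7, 43.9 and 37.4 CPM in the control libraries. These did not overlap (log2 fold change -0.23, edgeR adjusted p 0.441). IMP3 shares 31.2% of its exonic bases with SNX33 on the opposite strand, which held 281% as many counts, so its value is uncertain. IMP4 had 54.9, 36.9 and 65.8 CPM in the knockdown libraries and 72.9, 87.0 and 80.9 CPM in the control libraries. The groups did not overlap, and its log2 fold change of -0.61 was the lowest of the 41, with a 95% interval of -1.08 to -0.14 and an edgeR adjusted p of 0.208. MPHOSPH10, its partner, had 12.7, 22.8 and 20.01 CPM in the knockdown libraries and 15.7, 15.2 and 14.3 CPM in the control libraries. As with NOP58, knockdown library 1 lay below all controls and the other knockdown libraries above them, at a log2 fold change of 0.29 (95% interval -0.20 to 0.79). This value was 0.46 without knockdown library 1 and 0.10 without knockdown library 2. UTP4, WDR43, WDR75 and UTP15 belong to the subcomplex that binds the precursor first. UTP4 had 87.0, 79.1 and 77.6 CPM in the knockdown libraries and 94.7, 109 and 98.3 CPM in the control libraries, with no overlap and a difference of -0.31 in log2 (adjusted p 0.258 in edgeR). WDR43 and WDR75 were at 0.02 and 0.09 on the same scale, and UTP15 at -0.21.

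Further genes of this role were BYSL and RRP12, which act late, RRP9, a protein that binds the snoRNA U3, and NOP14, NOP9 and UTP20. Of these, only NOP14 had libraries that did not overlap, at 44.0, 47.6 and 41.5 CPM in knockdown and 49.6, 49.0 and 49.2 CPM in control libraries. The antisense gene NOP14-AS1 shares 17.1% of its exonic bases. BYSL had 44.9, 26.8 and 46.2 CPM in the knockdown libraries and 30.4, 47.9 and 47.7 CPM in the control libraries. Each group held 1 library far below its others, and the 95% interval of its log2 fold change ran from -0.67 to 0.48. That of RRP12 was wider still, from -0.89 to 0.36.

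All 9 genes of large subunit processing had log2 fold changes below 0, between -0.45 and -0.10, beside 44.1% of all tested genes below 0. Of the 9, 6 were lower with no overlap between groups, beside 10.8% of all tested genes. In mean TPM, WDR12, RRP1 and MRTO4 were higher in knockdown. Except for WDR12 and NIP7, the 9 were among the 21 genes of highest GC content described below, of which 19 lay below 0. Role and GC content were not separated. Of the genes of this role in the list of 120 described further below, 20 lay below 0 and 21 above, with a median of 0.002. BOP1, PES1 and WDR12 form a complex that is needed to process the large subunit rRNA. BOP1 had 112, 73.4 and 97.0 CPM in the knockdown libraries and 134, 129 and 122 CPM in the control libraries. PES1 had 174, 139 and 158 CPM in the knockdown libraries and 198, 187 and 181 CPM in the control libraries. For both genes the groups were apart and knockdown library 2 was the lowest, with log2 fold changes of -0.45 and -0.27 (edgeR adjusted p 0.233 and 0.322). WDR12, their partner, was at 30.1 ± 5.86 CPM in knockdown and 32.3 ± 1.31 CPM in control libraries (SD, n = 3 each), at -0.10.

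NOP16 had 49.9, 41.9 and 40.02 CPM in the knockdown libraries and 54.0, 60.1 and 57.6 CPM in the control libraries, and its log2 fold change was -0.38, with 0.224 as adjusted p in edgeR. RRS1, which helps place the smallest rRNA of the large subunit, had 21.4, 21.6 and 22.2 CPM in the knockdown libraries and 23.8, 29.4 and 28.0 CPM in the control libraries. NIP7 had 19.0, 38.1 and 34.1 CPM in the knockdown libraries and 34.9, 43.4 and 34.3 CPM in the control libraries. For NOP16 and RRS1 the groups were apart, while for NIP7 knockdown library 1 stood far below the rest. Without that library the log2 fold change of NIP7 was -0.10, against -0.30 with it. MRTO4 and RRP1 also did not overlap, at -0.21 and -0.12. PPAN shares 56.0% of its exonic bases with the read-through gene PPAN-P2RY11 on the same strand, so its value of -0.28 is uncertain. In all, 8 of the 41 genes share at least 5% of their exonic bases with another protein-coding gene, namely IMP3, NHP2, NIP7, NOP16, NOP9, PES1, POLR1C and PPAN.

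**Figure D3:**
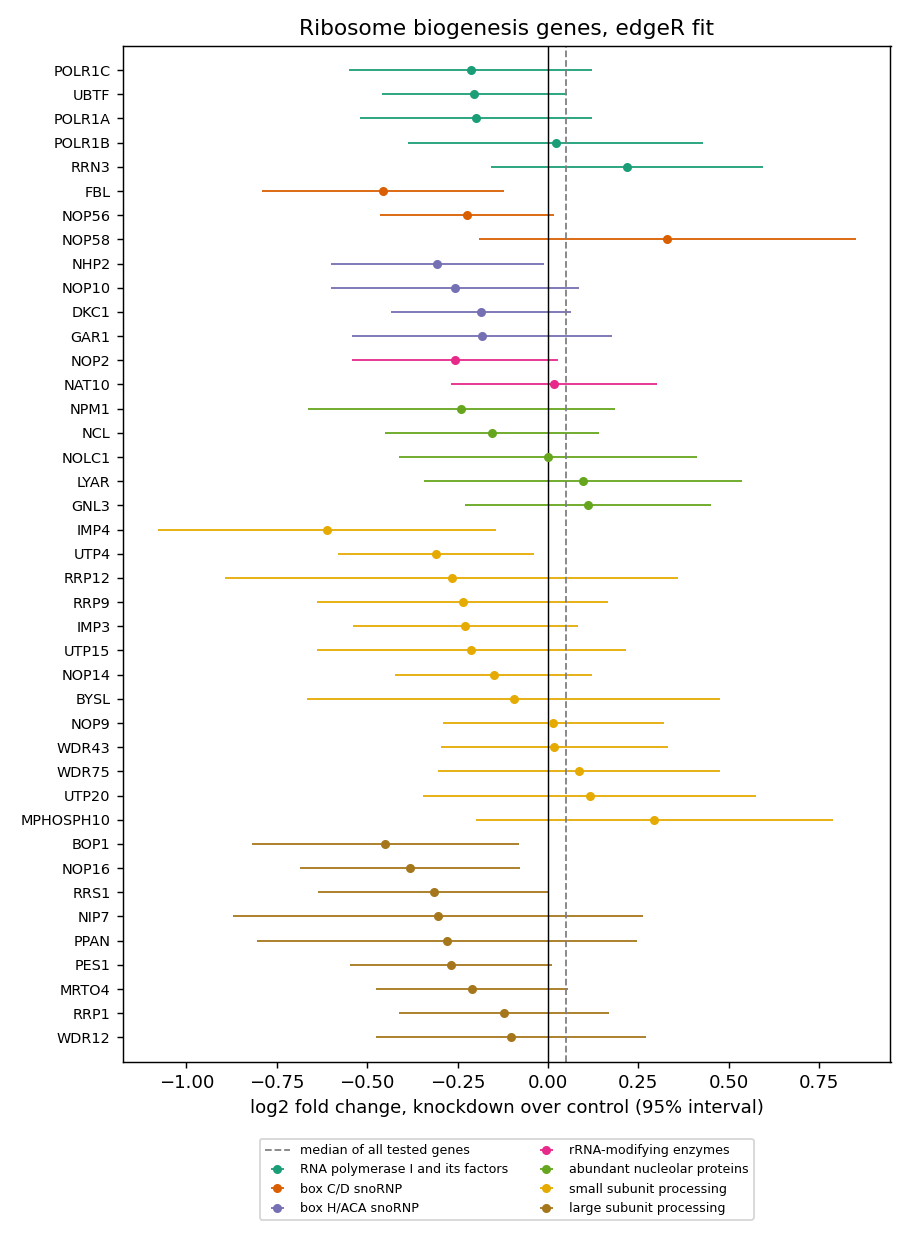
Log2 fold change of knockdown over control in the edgeR fit for each of the 41 genes, grouped and coloured by role, with 95% intervals as bars and the median of all tested genes (0.05) as a dashed line. Intervals exclude 0 for 6 genes, all on the lower side. All 9 genes of large subunit processing and all 4 of the box H/ACA group lie left of 0, beside 44.1% of all tested genes.

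Fold changes were related to the base composition of the transcripts, and also to their length and level. Spearman's correlation of the log2 fold change with GC content was -0.61 across the 41 genes and -0.22 across 14151 other protein-coding genes, as a description of values that share the same libraries. Pearson's correlation with GC content was -0.61 and -0.09. With transcript length Spearman's value was 0.37 and 0.26, and with log2 CPM -0.22 and -0.33. Among the other genes both were stronger than with GC content. GC content of the longest annotated transcript ran from 37.7% in WDR75 to 65.2% in BOP1. Split after the data were seen, among the 20 genes of lowest GC content, 11 lay below 0 with a median of -0.05, and among the 21 of highest GC content 19 lay below 0 with a median of -0.24. Groups were apart and lower for 2 of the 20 and 14 of the 21, beside 10.8% of all tested genes. To show what differs, the first 120 coding bases are printed for the genes of lowest GC content (WDR75, UTP15) and for a pair of high GC content (RRP1, RRP9; BOP1 and PPAN, which are higher, are not shown), from GENCODE 29 transcripts, 5′ to 3′, with G and C in capitals.
WDR75 (chromosome 2, plus strand): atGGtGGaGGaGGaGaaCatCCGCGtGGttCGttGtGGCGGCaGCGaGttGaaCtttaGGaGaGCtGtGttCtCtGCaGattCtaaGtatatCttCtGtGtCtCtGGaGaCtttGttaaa
UTP15 (chromosome 5, plus strand): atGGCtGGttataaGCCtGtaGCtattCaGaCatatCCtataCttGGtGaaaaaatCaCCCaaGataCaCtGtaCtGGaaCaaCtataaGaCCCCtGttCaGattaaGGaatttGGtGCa
RRP1 (chromosome 21, plus strand): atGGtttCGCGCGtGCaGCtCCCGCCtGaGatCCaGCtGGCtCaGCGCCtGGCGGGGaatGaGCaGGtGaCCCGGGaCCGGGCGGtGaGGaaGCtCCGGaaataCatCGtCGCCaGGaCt
RRP9 (chromosome 3, minus strand): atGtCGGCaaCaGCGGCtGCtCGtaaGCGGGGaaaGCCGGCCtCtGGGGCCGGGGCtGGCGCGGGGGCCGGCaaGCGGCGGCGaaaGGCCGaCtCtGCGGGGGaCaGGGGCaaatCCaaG
G and C make up 47.5% and 39.2% of the stretches of WDR75 and UTP15, and 65.8% and 72.5% of those of RRP1 and RRP9.

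Libraries differed in this respect within the knockdown group. Spearman's correlation of a gene's deviation from its mean over the 6 libraries with GC content, across the 41 genes, was 0.63, -0.82 and -0.14 for the knockdown and 0.32, 0.43 and 0.43 for the control libraries, each in the order of their numbers. The same value over all tested genes was 0.42, -0.52 and 0.07 in the knockdown and 0.14, 0.11 and 0.04 in the control libraries. Genes of 1 library share its depth and preparation, and the deviations of a gene sum to 0 over the libraries, so these are descriptions with no test. In knockdown library 2 the deviation was 0.34 for WDR75 and 0.26 for UTP15, but -0.03 for RRP1 and -0.47 for RRP9. Without knockdown library 2, 16 of the 20 genes of low and 18 of the 21 of high GC content lay below 0, with medians of -0.13 and -0.20. The trends of each library with GC content and transcript length were then removed, in a pair of ways that were both chosen after the data were seen. With the TMM level of each library kept, BOP1 was called lower (log2 fold change -0.41, edgeR adjusted p 0.0414), 1 of the 41 beside 0.943% of all tested genes called lower, and 33 of the 41 lay below 0 with a median of -0.19. With the trends centred per gene instead, so that the level of each library moved too, 10 of the 41 were called lower beside 6.27% of all tested genes. That form was run first and was replaced after its output was seen, because it shifted the median of all tested genes to -0.08. Its 10 genes were BOP1, FBL, POLR1A, PES1, NOP16, NOP2, NOP56, DKC1, IMP4 and UTP4. The call of a gene thus depends on the centring, whereas the median of the 41 minus that of all tested genes was -0.22 in both. Whether base composition accounts for the differences between groups was not tested.

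**Figure D4:**
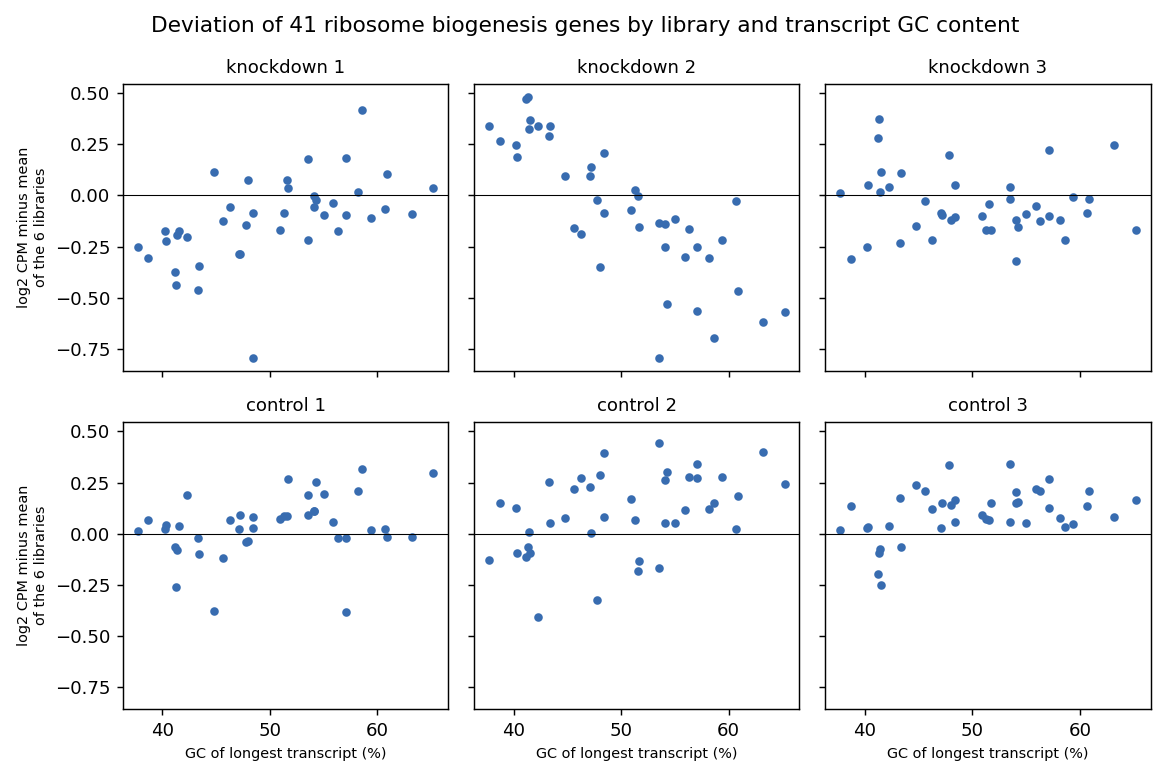
Difference of log2 CPM from the gene's mean over the 6 libraries (vertical axis) against GC content of the longest transcript in percent (horizontal axis) for the 41 genes, with a panel for each knockdown library above and each control library below. Points slope down in knockdown library 2 (Spearman's correlation -0.82) and up in knockdown library 1 (0.63), while the control panels slope up less (0.32 to 0.43).

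Promoters were looked at because many of these genes are known MYC targets. RefSeq promoter windows of GRCh38.p14, from 250 bases before to 50 after the gene start, matched 35 of the 41 genes. The E-box letters CACGTG, which read the same on both strands and are bound by MYC, were found in 13 of these 35 windows, a search added after the data were seen (37.1%), against 7.3% of all 35116 windows and 9.9% of those of tested protein-coding genes. Genes with the letters had a median log2 fold change of -0.24 (10 of 13 below 0) and those without -0.19 (16 of 22 below 0). Among tested protein-coding genes the medians were 0.015 with the letters and 0.02 without. The difference between genes with and without the letters was not tested. Another motif, the CGCG element, was also searched and was found in 1 of the 35 windows (NOP14), against 0.4% of all windows. MYC itself had 14.7, 11.3 and 37.9 CPM in the knockdown libraries and 17.1, 14.9 and 14.7 CPM in the control libraries. Knockdown library 3 was above all controls and the other knockdown libraries below them, library 1 only just (14.685 against 14.74 CPM in control library 3). The log2 fold change of MYC was 0.45 (SE 0.40, edgeR adjusted p 0.614), so its side of 0 came from knockdown library 3. The 250 bases before the start are printed for the 3 genes of lowest p with an E-box there, 5′ to 3′ with the E-box in capitals. FBL, PES1, NOP2 and MRTO4, which have a lower p than NOP10, hold theirs after the start.
IMP4, chr2:130342647-130342896, plus strand: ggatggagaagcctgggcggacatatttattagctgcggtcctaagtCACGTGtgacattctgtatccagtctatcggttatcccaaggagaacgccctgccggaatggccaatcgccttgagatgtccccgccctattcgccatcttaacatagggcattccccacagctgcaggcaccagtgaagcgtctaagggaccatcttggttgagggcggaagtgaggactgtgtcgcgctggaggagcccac
UTP4, chr16:69132399-69132648, plus strand: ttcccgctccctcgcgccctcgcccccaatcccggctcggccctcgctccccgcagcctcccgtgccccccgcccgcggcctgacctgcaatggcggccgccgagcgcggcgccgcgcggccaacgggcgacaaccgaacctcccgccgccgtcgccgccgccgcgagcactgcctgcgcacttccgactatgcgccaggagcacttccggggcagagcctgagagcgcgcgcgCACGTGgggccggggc
NOP10, chr15:34343137-34343386, minus strand: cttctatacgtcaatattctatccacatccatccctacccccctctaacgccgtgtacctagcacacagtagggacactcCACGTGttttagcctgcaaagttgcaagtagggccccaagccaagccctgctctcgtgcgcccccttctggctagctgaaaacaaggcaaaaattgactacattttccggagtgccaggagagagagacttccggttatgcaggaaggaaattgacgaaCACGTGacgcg
The E-box starts 203 bases before the RefSeq start in IMP4 and 16 bases before it in UTP4, while NOP10 has a pair, 170 and 11 bases before it. For all 3 the deposited table begins the gene further upstream, so the windows belong to the RefSeq start, for IMP4 the one listed first. A match is a description of letters and does not show binding.

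Other genes of the pathway were taken from a list of 120 names covering the same roles and the RNA exosome, which trims rRNA precursors. Of the 120, all tested, 0 rose and 0 fell in edgeR, DESeq2 called SNU13 lower (adjusted p 0.0180), and at an unadjusted p under 0.05 there were 3 higher and 9 lower, where 9.77% of all tested genes were higher and 6.71% lower. Their median log2 fold change was -0.03, with 66 below 0 and 54 above. Groups were apart and lower for 18 of the 120 and higher for 4, beside 10.8% and 13.4% of all tested genes. The 4 of lowest p were WDR74, SNU13, LAS1L and SENP3. SNU13, a protein that binds box C/D snoRNAs and U4, had 70.2, 54.6 and 65.7 CPM in the knockdown libraries and 113, 80.6 and 107 CPM in the control libraries (log2 fold change -0.66, edgeR adjusted p 0.123). LAS1L, an endonuclease subunit of large subunit processing, had 477, 422 and 456 CPM in the knockdown libraries and 584, 589 and 594 CPM in the control libraries (log2 fold change -0.38, edgeR adjusted p 0.132). WDR74, a large subunit factor, had 110, 95.8 and 114 CPM in the knockdown libraries and 71.8, 82.0 and 71.6 CPM in the control libraries (log2 fold change 0.51, edgeR adjusted p 0.122). For SNU13, LAS1L and WDR74 the groups were apart. SENP3, a protease of the nucleolus, had 98.5, 27.7 and 111 CPM in the knockdown libraries and 28.2, 28.8 and 29.9 CPM in the control libraries, and shares 41.2% of its exonic bases with the read-through gene SENP3-EIF4A1, so its value is uncertain. Knockdown library 2 alone was at the control level, and without it SENP3 was called higher (log2 fold change 1.85, edgeR adjusted p 0.00418).

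Set beside the genes for proteins of the ribosome itself, the 41 genes spread around a higher median, at -0.20 against -0.43. All 79 cytosolic ribosomal protein genes tested, a list trimmed of paralogs after values were seen, had log2 fold changes below 0. Of the 41, 30 did so, beside 44.1% of all tested genes. Groups were apart and lower for 71 of the 79 and 16 of the 41, beside 10.8% of all tested genes. None of the 79 passed the edgeR test. At an unadjusted edgeR p under 0.05, 70 of the 79 were lower, beside 6.71% of all tested genes. Abundant genes as a whole lay lower in knockdown. Other protein-coding genes had a median log2 fold change of -0.11 above 7 log2 CPM, where 7 of the 41 had -0.24, and of -0.06 from 6 to 7 log2 CPM, where 12 of the 41 had -0.20. From 4 to 5 log2 CPM the medians were -0.18 for 11 of the 41 and 0.03 for other protein-coding genes. No test of the lists against each other was made.

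**Figure D5:**
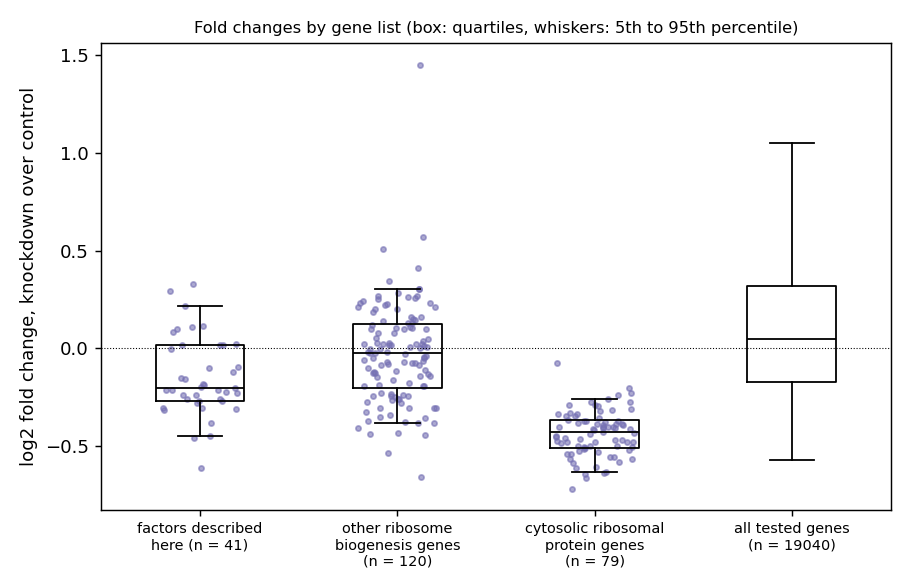
Log2 fold change of knockdown over control (vertical axis) for the 41 genes, the 120 other genes of ribosome biogenesis, the 79 cytosolic ribosomal protein genes and all tested genes, with genes as points except for the last, boxes at the quartiles and whiskers at the 5th and 95th percentile. Medians are -0.20, -0.03, -0.43 and 0.05 from left to right.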

How the data were processed

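RNA of 3 knockdown and 3 control PC9 libraries was sequenced on an Illumina Xten instrument, and reads were quality controlled, mapped and counted per gene by the authors, per the labels' protocols. The sources used here name no aligner, counter or strand setting. Each gene has counts, TPM and FPKM in the deposited table, and the deposited FPKM were not used. The submitters' processing notes name hg19, but 96.8% of genes shared with GENCODE 29 had its GRCh38 coordinates.

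Counts were filtered with filterByExpr (minimum count 10), scaled by TMM and tested with edgeR 4.0.16 in R 4.3.3 over all genes, with Benjamini-Hochberg adjustment. The biological coefficient of variation was 22.9%. Each SE is the absolute log2 fold change over the square root of F. Libraries of a group differed beyond sampling noise. Deviations from the group mean correlated at 0.00831, -0.0788 and -0.0256 between libraries of the same number. These values show no pairing by number but cannot exclude it, as each group mean rests on 3 libraries.

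Genes were named by rule: the highest and lowest fold change of each role, the 6 of lowest p, the 3 of highest and of lowest TPM, the 4 of lowest p in the other list, and MYC. All other genes were named after their values were seen. The 41 genes and the lists were chosen with earlier results of these data known. Alternatives were DESeq2 1.42.0, limma 3.58.1, other scalings and filters, and leaving out each library. GC content and length came from GENCODE 29 and their trends from mgcv 1.9.3. One of the cell type markers is not reported here.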

Additional observations from a re-analysis of the deposited data

How the results depend on the processing

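No gene of the 41 was called in either direction with another scaling, filter or tool, with the replicate block, with deposited TPM or with a library left out. Under the filter of at least 10 CPM in 3 libraries, only 40 of the 41 were tested. With GC and length trends removed and the TMM level kept, 1 of the 41 was called lower, beside 0.943% of all tested genes. With the offsets centred per gene, 10 of the 41 were called lower, beside 6.27% of all tested genes. Per-gene centring put the median of all tested genes at -0.0849, against 0.0305 with the TMM level kept and 0.0503 with no trend removed. Both forms and the TPM fit were added after the data were seen. The median log2 fold change of the 41, -0.203, was -0.0805 by library size alone (all tested genes 0.175). It was -0.143 over the 40 tested with at least 10 CPM in 3 libraries and -0.141 with limma-voom after cyclic loess. Per-gene centring gave -0.305, and deposited TPM in limma 0.0635. Leaving out 1 library gave -0.233 to -0.180. Cyclic loess put the median of all tested genes at -0.00106. Over all genes, 209 were higher and 14 lower. These counts were 21 and 1 with at least 10 CPM in 3 libraries, 483 and 218 with DESeq2, 428 and 179 with trends removed at the TMM level, and 464 and 1189 with per-gene centring. Lower genes numbered 9 by library size alone, 7 with no filter and 7 with cyclic loess, and higher genes 384 with TPM. Leaving out 1 library gave 54 to 106 higher and 7 to 15 lower genes. With the replicate number as a block, 34 were higher and 0 lower over all genes, and the median of the 41 was -0.202. Of the 120 other genes, 0 were called in edgeR. By library size alone 1 was higher (WDR74), over the left-out libraries 0 to 1 (SENP3, without knockdown library 2), and 1 was lower with DESeq2 (SNU13). With trends removed, 2 were higher and 1 lower at the TMM level, and 1 was higher and 16 lower with per-gene centring. Apart from the level moved by that centring, the cause of these shifts was not tested. The SE of the 41 had a median of 0.149 on the log2 scale, which limits what 3 libraries a group can resolve.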
